A study of Mus musculus with 7 samples.

Results

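Sox transcription factors were measured in cells sorted from fetal mouse mammary rudiments, and the 9 genes described are the SoxE genes Sox8, Sox9 and Sox10, the SoxC genes Sox4, Sox11 and Sox12, and the SoxD genes Sox5, Sox6 and Sox13. Each was found by its symbol in the deposited expression table, where it had a single row, so that they make up 9 of 38579 gene entries. All cells were primary cells of CD1 mice at E17.5, late in gestation, taken straight from the sort, and RNA sequencing gave 7 libraries. In the reporter sort, 2 libraries held Sox10+EpCAM+ fetal mammary stem cells (fMaSC, a fraction enriched for them), gated on a Sox10-Venus fluorescent reporter and on the epithelial surface protein EpCAM, and 1 library held EpCAM-negative stroma, whose column name adds that it was Sox10-negative and lineage-negative. In the other sort, 2 libraries held CD24+CD49f+ fMaSC, gated on the surface proteins CD24 and CD49f, and 2 held CD24low stroma. The stroma labels name CD24 alone, which the column names give as low or negative. All of these were lineage-negative and were sorted without use of Sox10. The question set by this design is how the fractions obtained by the 2 strategies compare.

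Sox proteins bind DNA through an SRY-type HMG box and are grouped by the similarity of that domain. SoxE proteins act in neural crest, glia, pigment cells, cartilage and many epithelia, and in the mammary gland Sox9 and Sox10 are known from stem and progenitor cells. SoxC proteins are activators found in many undifferentiated embryonic cells. SoxD proteins lack a transactivation domain of their own, pair through a coiled coil and are known in cartilage as partners of Sox9.

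The values are FPKM, fragments per kilobase of transcript per M mapped fragments, so that levels of different genes may be set side by side within a library. Their sum ran from 378952 to 752737 FPKM between libraries, and folds depend on how the libraries are scaled to each other. Estimated from the lowest values, the libraries held 22.8 M to 34.05 M fragments, and at 1 FPKM or above there were 12790 to 13639 genes in each. The fraction labels were checked against markers. All 8 epithelial markers were at 1 FPKM or more in the 4 fMaSC libraries, where they summed to 805 and 949 FPKM in Sox10+EpCAM+ fMaSC and 573 and 372 FPKM in CD24+CD49f+ fMaSC, against 7.39 FPKM in EpCAM-negative stroma and 3.71 and 2.77 FPKM in CD24low stroma. The 8 fibroblast markers summed to 47.0 and 76.6 FPKM in Sox10+EpCAM+ fMaSC and 2222 and 3440 FPKM in CD24+CD49f+ fMaSC, against 6453 FPKM in EpCAM-negative stroma and 7592 and 7205 FPKM in CD24low stroma. Fibroblast transcripts were therefore a measurable part of CD24+CD49f+ fMaSC, at 749 and 1058 FPKM for Col3a1, and their part in the Sox values of that fraction was not tested. The 5 erythroid markers summed to 4665 and 489 FPKM in CD24+CD49f+ fMaSC, so its replicates differed in them. They summed to 106 and 58.9 FPKM in Sox10+EpCAM+ fMaSC, 61.3 FPKM in EpCAM-negative stroma and 70.0 and 143.7 FPKM in CD24low stroma. Their part in the Sox values was not tested. In such bulk libraries fewer cells of a type and less RNA per cell cannot be told apart.

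Sox10 separated the fractions far more than any other member. It stood at 103 and 110.3 FPKM in Sox10+EpCAM+ fMaSC, against 0.493 FPKM in EpCAM-negative stroma. In CD24+CD49f+ fMaSC it stood at 58.0 and 58.7 FPKM, against 1.55 and 0.848 FPKM in CD24low stroma. All 4 fMaSC libraries lay above all 3 stroma libraries, and the replicates of each fMaSC fraction were close together. The gene lies at chr15:79154913-79164490 (GRCm38).

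**Figure D1:**
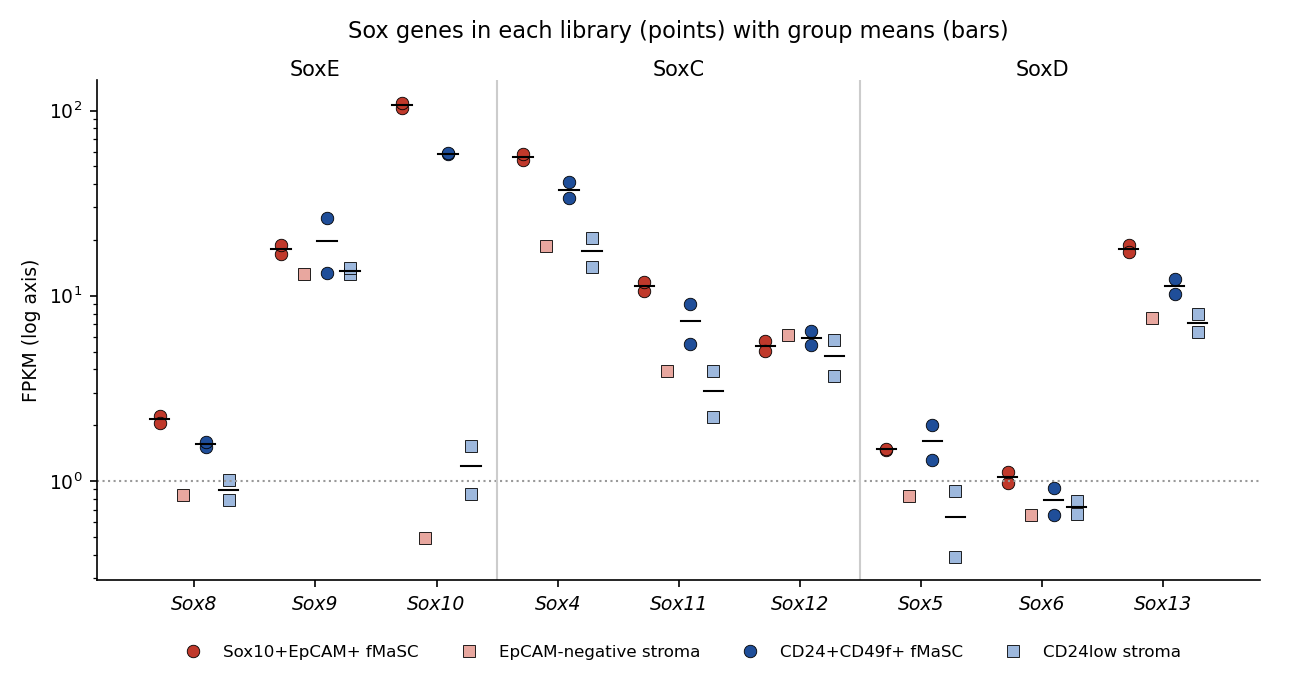
FPKM (log axis) of the 9 Sox genes in each of 7 libraries, as points coloured by sort fraction, with a bar at the mean of groups of 2 libraries and a dotted line at 1 FPKM. Sox10 sits at 58.0 to 110.3 FPKM in the 4 fMaSC libraries and at 0.493 to 1.55 FPKM in the 3 stroma libraries, whereas the fractions overlap for Sox9, Sox12 and Sox6.

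In the reporter sort Sox10 was itself gated, so its level there is a check of the gate and not a finding. In the CD24/CD49f sort, which did not use it, the log2 fold change of FPKM + 1 in CD24+CD49f+ fMaSC against CD24low stroma was 4.77 (SE 0.20, 95% interval 4.28 to 5.27; limma, adjusted p = 0.000356). A gene is said to have risen, fallen or been called where the adjusted p, taken over the 14418 genes that reached 1 FPKM in 2 or more libraries, was under 0.05. Sox10 was called in this comparison under all 17 alternative settings, with log2 fold changes of 4.54 to 5.55. With both sorts in 1 fit, the log2 fold change in fMaSC against stroma was 5.33 (SE 0.30; limma, adjusted p = 0.000143). Its value in the reporter sort was 6.17 (SE 0.25).

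Sox9, which directs cartilage and many epithelial progenitors, behaved unlike Sox10. It stood at 16.8 and 18.9 FPKM in Sox10+EpCAM+ fMaSC, against 13.2 FPKM in EpCAM-negative stroma. In the other sort the values were 13.2 and 26.4 FPKM in CD24+CD49f+ fMaSC, against 13.1 and 14.0 FPKM in CD24low stroma. The fMaSC and stroma ranges overlapped, and the higher of the CD24+CD49f+ fMaSC values stood apart from every other library. The stroma mean was 68.7% of the fMaSC mean in the CD24/CD49f sort and 73.9% in the reporter sort, whereas for Sox10 these shares were 2.06% and 0.461%. Sox9 was not called in CD24+CD49f+ fMaSC against CD24low stroma (log2 fold change 0.44, 95% interval -0.34 to 1.21; limma, adjusted p = 0.456) or in Sox10+EpCAM+ fMaSC against EpCAM-negative stroma (0.41, interval -0.54 to 1.35; adjusted p = 0.458), where bringing every library to the same FPKM sum turned the sign (-0.37). Without CD24+CD49f+ fMaSC replicate 1 it was called in the first of these (0.91, adjusted p = 0.0343), and without replicate 2 the sign turned (-0.04). The locus is chr11:112782224-112787760.

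The third SoxE gene, Sox8, which overlaps in function with Sox9 and Sox10 in crest and gonad, was low. It measured 2.23 and 2.07 FPKM in Sox10+EpCAM+ fMaSC, against 0.835 FPKM in EpCAM-negative stroma. It measured 1.52 and 1.63 FPKM in CD24+CD49f+ fMaSC, against 1.01 and 0.790 FPKM in CD24low stroma. The fMaSC libraries were all higher. Sox8 rose in the reporter sort (log2 fold change 0.78, SE 0.19; limma, adjusted p = 0.0284) and in both sorts together (0.58, SE 0.14; adjusted p = 0.0286), but not by this threshold in the CD24/CD49f sort (0.44, 95% interval 0.07 to 0.81; adjusted p = 0.138). The reporter call was lost without Sox10+EpCAM+ fMaSC replicate 1 (0.74, adjusted p = 0.171) or 2 (0.82, adjusted p = 0.131). The call over both sorts was lost without either of these libraries (0.54 and 0.57), without EpCAM-negative stroma (0.44) and without CD24low stroma replicate 1 (0.65) or 2 (0.57). Sox8 lies at chr17:25565892-25570686, and its neighbour 2810468N07Rik lies beyond its start at chr17:25570811-25575043, without overlap. That neighbour had 4.25 and 3.75 FPKM in Sox10+EpCAM+ fMaSC against 0.760 FPKM in EpCAM-negative stroma. It had 2.82 and 2.28 FPKM in CD24+CD49f+ fMaSC against 0.847 and 1.22 FPKM in CD24low stroma.

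The FPKM ratio of Sox10 to Sox9 was 6.17 and 5.83 in Sox10+EpCAM+ fMaSC, against 0.0374 in EpCAM-negative stroma. It was 4.39 and 2.23 in CD24+CD49f+ fMaSC, against 0.118 and 0.0604 in CD24low stroma. Sox10 was the highest of the 9 genes in both fMaSC fractions, while in EpCAM-negative stroma it was the lowest, and in CD24low stroma the mean of 1.20 ± 0.496 FPKM (SD, n = 2) did not stand clear of Sox8 at 0.898 ± 0.153 FPKM (SD, n = 2).

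Among SoxC genes, Sox4 and Sox11 were higher in fMaSC and Sox12 was not. Sox4, a SoxC activator studied in progenitors and in epithelial plasticity, stood at 53.7 and 58.1 FPKM in Sox10+EpCAM+ fMaSC, against 18.6 FPKM in EpCAM-negative stroma. In CD24+CD49f+ fMaSC it stood at 33.7 and 40.9 FPKM, against 20.6 and 14.3 FPKM in CD24low stroma. The fMaSC libraries were all higher, but Sox4 remained the highest of the 9 genes in both stroma fractions, so its difference was one of degree. Its log2 fold change was 1.54 in the reporter sort (SE 0.28; limma, adjusted p = 0.011), 1.07 in the CD24/CD49f sort (SE 0.23; adjusted p = 0.0376) and 1.26 over both (SE 0.19; adjusted p = 0.00576).

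The Sox4 call in the CD24/CD49f sort was lost without CD24+CD49f+ fMaSC replicate 2 (0.94, adjusted p = 0.0602), CD24low stroma replicate 1 (1.32, adjusted p = 0.0652) or 2 (0.82, adjusted p = 0.186), and, with the fold unchanged at 1.07, without Sox10+EpCAM+ fMaSC replicate 1 or 2 (adjusted p = 0.116 and 0.112). The reporter call was lost without Sox10+EpCAM+ fMaSC replicate 1 (1.60, adjusted p = 0.0658) or 2 (1.48, adjusted p = 0.0752). With every library brought to the same FPKM sum, Sox4 was called in none of the 3 comparisons (reporter sort 0.76, adjusted p = 0.403; CD24/CD49f sort 0.80, adjusted p = 0.627; both sorts 0.79, adjusted p = 0.184). In the CD24/CD49f sort the call held in 8 of 17 alternatives. Its locus, chr13:28948919-28953713, is overlapped on the other strand by Gm26735. That entry had 27.0 and 26.9 FPKM in Sox10+EpCAM+ fMaSC against 8.99 FPKM in EpCAM-negative stroma, and 23.0 and 19.1 FPKM in CD24+CD49f+ fMaSC against 7.45 and 7.68 FPKM in CD24low stroma. No statement on strand is given for the counting, so reads of the overlapping stretch cannot be told apart.

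Sox11, a SoxC activator best known from developing neurons and mesenchyme, followed Sox4 at a lower level. It stood at 10.6 and 11.9 FPKM in Sox10+EpCAM+ fMaSC, against 3.93 FPKM in EpCAM-negative stroma. It stood at 5.52 and 9.04 FPKM in CD24+CD49f+ fMaSC, against 3.91 and 2.21 FPKM in CD24low stroma. The fMaSC libraries were again all higher. Sox11 rose in the reporter sort (log2 fold change 1.31, SE 0.36; limma, adjusted p = 0.0437) and over both sorts (1.14, SE 0.22; adjusted p = 0.0134), while the CD24/CD49f sort alone missed the threshold (1.03, 95% interval 0.31 to 1.75; adjusted p = 0.0855). Without CD24+CD49f+ fMaSC replicate 1 it was called there too (1.34, adjusted p = 0.0394). The reporter call was lost without Sox10+EpCAM+ fMaSC replicate 1 (1.39, adjusted p = 0.143) or 2 (1.24, adjusted p = 0.164), and the call over both sorts without EpCAM-negative stroma (1.03, adjusted p = 0.0843). The table places Sox11 at chr12:27340697-27342709, a model of 2013 bases on which its FPKM rests.

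Sox12, a weaker activator of the same family, was nearly level. It measured 5.73 and 5.03 FPKM in Sox10+EpCAM+ fMaSC, against 6.15 FPKM in EpCAM-negative stroma. It measured 5.43 and 6.44 FPKM in CD24+CD49f+ fMaSC, against 5.74 and 3.70 FPKM in CD24low stroma. The stroma value was the higher in the reporter sort, and the ranges overlapped in the other. The log2 fold change was -0.17 in the reporter sort (95% interval -0.83 to 0.50; limma, adjusted p = 0.676), 0.30 in the CD24/CD49f sort (interval -0.25 to 0.84; adjusted p = 0.470) and 0.11 over both (interval -0.33 to 0.56; adjusted p = 0.673), and these intervals span both directions. Over both sorts the sign turned under 2 other scalings (-0.34 with every library brought to the same FPKM sum, -0.0075 with median-of-ratios factors) and without CD24low stroma replicate 2 (-0.06). The locus is chr2:152393611-152398063.

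Since Sox4 and Sox11 were higher together in fMaSC while Sox12 was not, the bases just upstream of their annotated starts are shown, with Sox8 as the called SoxE gene that has an entry. They are the 250 bases before the start from RefSeq (GRCm38.p6), read 5′ to 3′ on the gene's own strand, which is the minus strand for all 4. The windows lie at chr13:28953700-28953949 for Sox4, chr12:27342719-27342968 for Sox11, chr2:152398047-152398296 for Sox12 and chr17:25570687-25570936 for Sox8. Capitals mark every match, on either strand, to the CCAAT box (CCAAT, or ATTGG on the other strand) and the GC box (GGGCGG, or CCGCCC).
Sox4: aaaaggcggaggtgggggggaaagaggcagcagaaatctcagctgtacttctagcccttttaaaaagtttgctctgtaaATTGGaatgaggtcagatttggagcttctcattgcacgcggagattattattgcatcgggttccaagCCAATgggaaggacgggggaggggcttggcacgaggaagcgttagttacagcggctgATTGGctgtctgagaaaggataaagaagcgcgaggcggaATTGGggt
Sox11: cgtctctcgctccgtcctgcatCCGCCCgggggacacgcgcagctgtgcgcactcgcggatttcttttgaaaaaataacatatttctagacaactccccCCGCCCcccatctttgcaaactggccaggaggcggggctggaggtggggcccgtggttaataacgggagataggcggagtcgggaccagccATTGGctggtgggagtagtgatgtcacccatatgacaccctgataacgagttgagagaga
Sox12: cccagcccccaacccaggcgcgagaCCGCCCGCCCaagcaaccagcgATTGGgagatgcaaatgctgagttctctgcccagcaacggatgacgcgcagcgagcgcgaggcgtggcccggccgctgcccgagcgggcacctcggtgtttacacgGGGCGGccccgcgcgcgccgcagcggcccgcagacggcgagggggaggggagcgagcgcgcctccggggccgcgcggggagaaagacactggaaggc
Sox8: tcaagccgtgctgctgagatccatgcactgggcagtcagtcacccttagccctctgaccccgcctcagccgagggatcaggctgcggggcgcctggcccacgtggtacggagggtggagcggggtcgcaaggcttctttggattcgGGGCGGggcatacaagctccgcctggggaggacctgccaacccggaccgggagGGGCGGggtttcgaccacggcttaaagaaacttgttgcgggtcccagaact
The Sox4 window held 4 CCAAT matches and no GC box, in a window of 50.8% G and C. The Sox11 window held 1 CCAAT match and 2 GC boxes, at 58.0% G and C, and the Sox12 window 1 CCAAT match and 3 GC boxes, of which a pair overlap, at 74.4%. The Sox8 window held 2 GC boxes and no CCAAT match, at 65.6%. Of 32851 such windows in all, 33.8% held CCAAT and 32.7% held the GC box. The SOX core letters ACAAAG and ACAATG, found in 16.5% and 10.7% of all windows, and the TATA letters TATAAA, found in 12.4%, were in none of the 4 windows on either strand. Of the 9 genes, 7 were matched in the table used here, and the windows of Sox5, Sox6 and Sox13 are not shown.

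SoxD genes were led by Sox13, which is known from T cell development. It stood at 18.8 and 17.2 FPKM in Sox10+EpCAM+ fMaSC, against 7.54 FPKM in EpCAM-negative stroma. In CD24+CD49f+ fMaSC it stood at 10.3 and 12.3 FPKM, against 7.99 and 6.35 FPKM in CD24low stroma. All fMaSC libraries were higher. Sox13 rose in the reporter sort (log2 fold change 1.15, SE 0.23; limma, adjusted p = 0.0147) and over both sorts (0.81, SE 0.18; adjusted p = 0.0184), and in the CD24/CD49f sort it missed the threshold (0.59, 95% interval 0.14 to 1.05; adjusted p = 0.109). Both calls were lost without Sox10+EpCAM+ fMaSC replicate 1 (1.09 and 0.76) or 2 (1.21 and 0.80), and that over both sorts also without EpCAM-negative stroma (0.59). The gene lies at chr1:133382303-133424377.

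Sox5 and Sox6, which assist Sox9 at cartilage genes, were near 1 FPKM. Sox5, at chr6:143828425-144781977, measured 1.48 and 1.49 FPKM in Sox10+EpCAM+ fMaSC against 0.828 FPKM in EpCAM-negative stroma, and 1.30 and 2.00 FPKM in CD24+CD49f+ fMaSC against 0.885 and 0.388 FPKM in CD24low stroma. The fMaSC libraries were all higher, yet it was called in none of these comparisons (limma, log2 fold change over both sorts 0.60, 95% interval 0.17 to 1.02, adjusted p = 0.0507). With the compared groups alone in the fit it was called in the reporter sort (0.44, adjusted p = 0.0373). It entered the tests through its 4 fMaSC libraries, since no stroma library reached 1 FPKM. Sox6, at chr7:115471344-116038744, measured 0.976 and 1.12 FPKM in Sox10+EpCAM+ fMaSC against 0.655 FPKM in EpCAM-negative stroma, and 0.659 and 0.916 FPKM in CD24+CD49f+ fMaSC against 0.777 and 0.666 FPKM in CD24low stroma. It reached 1 FPKM in 1 library, was therefore not tested, and its fractions overlapped.

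Counted together, 8 of the 9 genes were tested. Of these, 2 were called in CD24+CD49f+ fMaSC against CD24low stroma, Sox10 and Sox4, where 10.7% of all genes tested were called (7.78% higher and 2.94% lower). The reporter sort called 5 (Sox10, Sox4, Sox11, Sox13 and Sox8), where 26.1% of all genes were called (12.5% higher and 13.6% lower), and both sorts together called the same 5, where 25.1% were (15.6% higher and 9.5% lower). Each of these calls was upward. The counts in the reporter sort and over both sorts include Sox10, whose reporter call is a check of the gate and not a finding. In 6 of the 9 genes, the gated Sox10 among them, the 4 fMaSC libraries all lay above the 3 stroma libraries, against 23.3% of the genes tested, while 13.7% lay all below. The counts depended on the scaling and on single libraries. With equal FPKM sums Sox10 alone was called in each of the 3 comparisons. In the CD24/CD49f sort 1 gene was called without Sox10+EpCAM+ fMaSC replicate 1 or 2, CD24+CD49f+ fMaSC replicate 2 or CD24low stroma replicate 1 or 2, and 4 without CD24+CD49f+ fMaSC replicate 1. The reporter sort called 1 without Sox10+EpCAM+ fMaSC replicate 1 or 2. Over both sorts 3 were called without either of those and 2 without EpCAM-negative stroma.

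**Figure D2:**
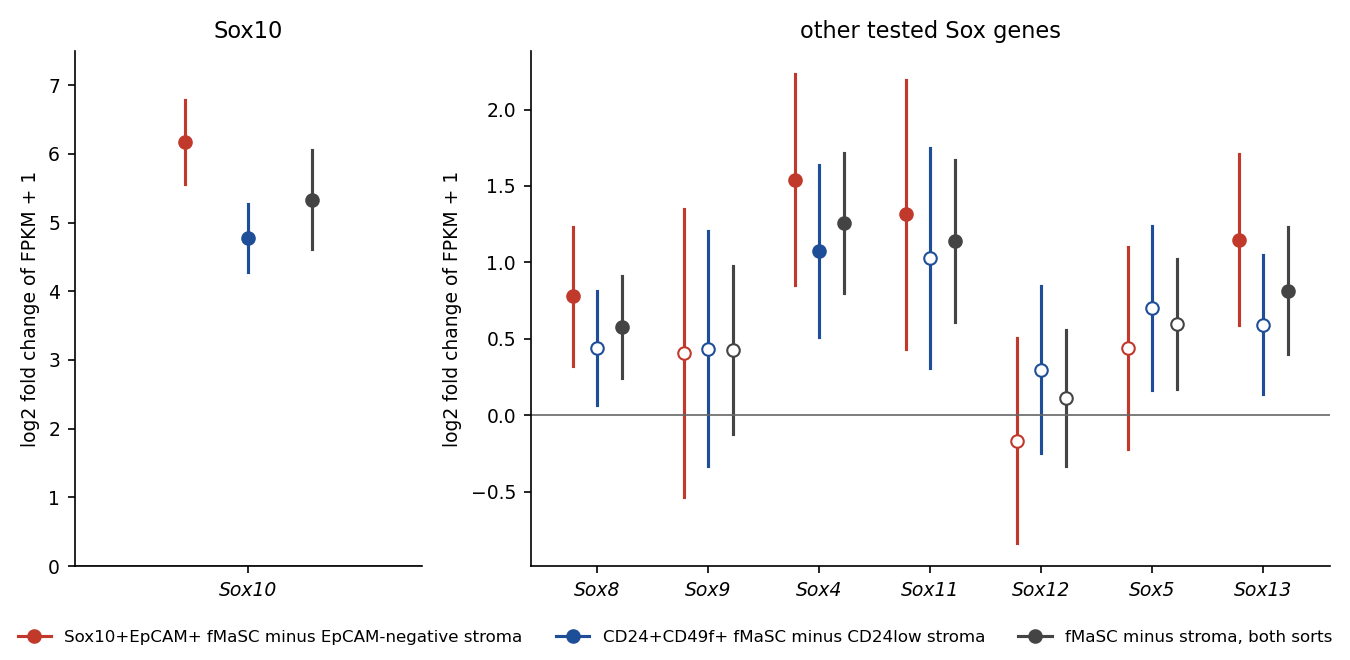
Log2 fold change of FPKM + 1 with 95% intervals for the 8 tested Sox genes in the reporter sort, in the CD24/CD49f sort and over both, Sox10 on its own scale at left. Filled points had an adjusted p under 0.05 (limma). Sox10, which was gated in the reporter sort, reaches 4.77 to 6.17, the other called genes lie between 0.58 and 1.54, and the intervals of Sox9 and Sox12 include 0.

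With Sox10 in the sum, the families made up different shares of the summed Sox signal. SoxE took 57.3% and 58.1% of the summed FPKM of the 9 genes in Sox10+EpCAM+ fMaSC, against 27.8% in EpCAM-negative stroma. In the CD24/CD49f sort SoxE took 56.1% and 54.8% in CD24+CD49f+ fMaSC, against 28.2% and 36.3% in CD24low stroma. The fMaSC libraries did not overlap with stroma, and 48.4%, 48.8%, 44.7% and 37.1% of the sum in the 4 of them was Sox10 alone. In the reporter sort the gate on Sox10 thus enters the shares, which are no finding about the family there. A high Sox10 also lowers the shares of SoxC and SoxD, since all are parts of the same sum. Shares without Sox10 are not given.

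SoxC took 32.8% and 33.2% in Sox10+EpCAM+ fMaSC against 54.9% in EpCAM-negative stroma, and 34.5% and 35.6% in CD24+CD49f+ fMaSC against 54.4% and 46.6% in CD24low stroma. SoxD took 8.75% to 9.93% in the fMaSC libraries and 17.1% to 17.4% in the stroma libraries. These lower shares in fMaSC went with higher sums. SoxC summed to 70.1 and 75.0 FPKM in Sox10+EpCAM+ fMaSC against 28.6 FPKM in EpCAM-negative stroma, and to 44.7 and 56.4 FPKM in CD24+CD49f+ fMaSC against 30.2 and 20.2 FPKM in CD24low stroma. No test was made on the sums, since they are scores over chosen genes.

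**Figure D3:**
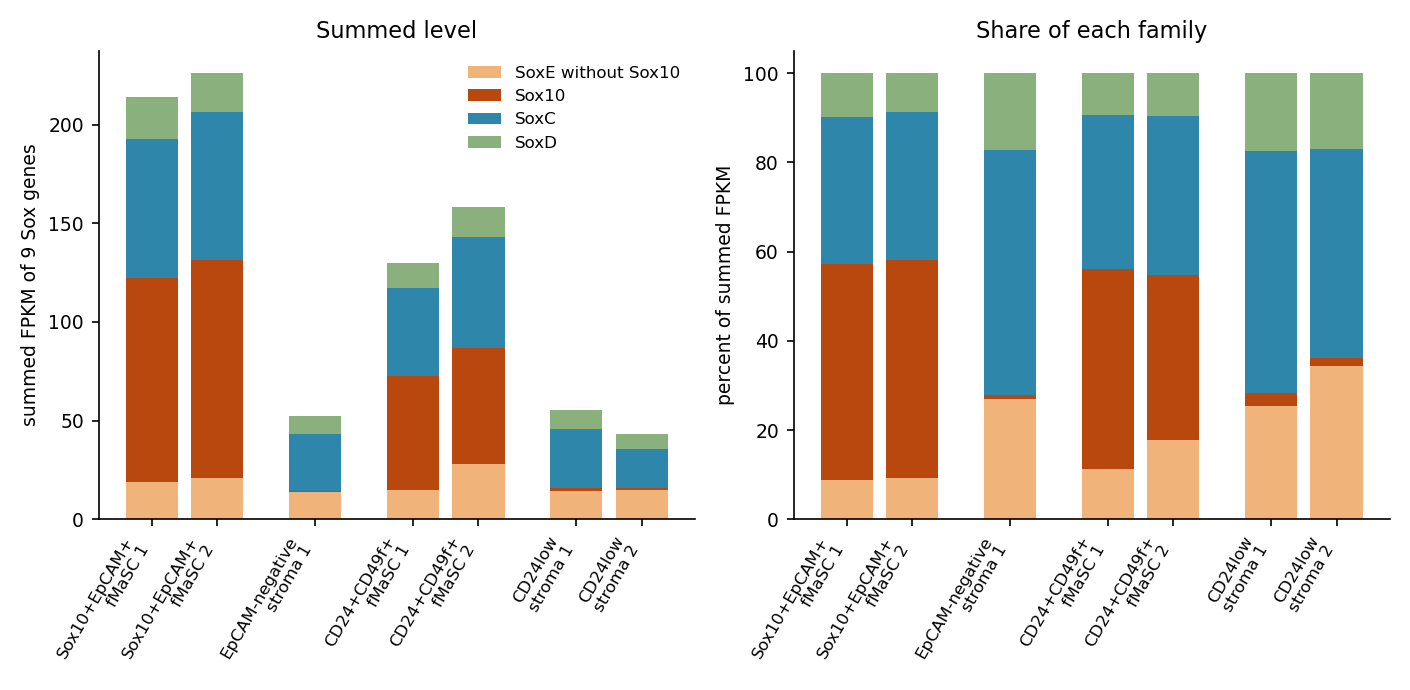
Summed FPKM of the 9 Sox genes in each library (left) and each family's percent of that sum (right), with Sox10 drawn apart from Sox8 and Sox9. SoxE takes 54.8% to 58.1% in fMaSC libraries and 27.8% to 36.3% in stroma libraries, and the part of Sox10, gated in the reporter sort, nearly disappears in stroma.

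The order of levels was alike within cell types. In Sox10+EpCAM+ fMaSC Sox10 (106.8 ± 4.88 FPKM) and Sox4 (55.9 ± 3.10 FPKM) led. Sox13 (18.0 ± 1.12 FPKM) and Sox9 (17.8 ± 1.52 FPKM) followed and did not differ beyond their spread, ahead of Sox11 (11.3 ± 0.875 FPKM; SD, n = 2 each). In CD24+CD49f+ fMaSC Sox10 (58.3 ± 0.516 FPKM) and Sox4 (37.3 ± 5.07 FPKM) again led. Sox9 (19.8 ± 9.30 FPKM) and Sox13 (11.3 ± 1.41 FPKM) followed, their means within the spread of Sox9, ahead of Sox11 (7.28 ± 2.49 FPKM; SD, n = 2 each), whose range met that of Sox12. In stroma the order of means was Sox4, Sox9, Sox13, Sox12 and Sox11 in both fractions, of which EpCAM-negative stroma is 1 library. Sox4 and Sox9 were nearly level in CD24low stroma replicate 2, at 14.26 and 14.04 FPKM. The ranges of Sox12 and Sox11 met in CD24low stroma. Against all 38579 entries, Sox10 lay within the top 1.74% to 3.28% in fMaSC libraries and the top 31.5% to 37.7% in stroma libraries, while Sox9 lay within the top 6.04% to 11.5% in all 7.

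Between the fMaSC fractions, Sox10+EpCAM+ libraries were higher than CD24+CD49f+ libraries for Sox10, Sox4, Sox11, Sox13, Sox8 and Sox6 without overlap, and not for Sox9, Sox12 and Sox5. What share of all genes separates these fractions in the same way was not counted, so the list is a description only. None of 8 tested genes was called (limma), where 9.99% of all genes were (1.95% higher and 8.04% lower), and 3 had an unadjusted p under 0.05. Sox10 came closest, with a log2 fold change of 0.86 (SE 0.20, 95% interval 0.37 to 1.36; adjusted p = 0.0516), and it is a gene on which the Sox10+EpCAM+ fraction was gated. Sox13 had 0.63 (interval 0.18 to 1.09; adjusted p = 0.0959) and Sox4 0.58 (interval 0.01 to 1.14; adjusted p = 0.204). Epcam, also gated, was 219 and 230.3 FPKM in Sox10+EpCAM+ fMaSC against 137 and 88.5 FPKM in CD24+CD49f+ fMaSC. The FPKM ratio of Sox10 to Epcam was 0.471 and 0.479 in the first fraction and 0.423 and 0.663 in the second, so that relative to Epcam the fractions overlapped. Fibroblast markers were higher in CD24+CD49f+ fMaSC, as given above, and their part in these differences was not tested.

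Between the stroma fractions none of 8 tested genes was called (limma, all adjusted p = 1), where 0.0277% of all genes were (0.0139% higher and 0.0139% lower), and none had an unadjusted p under 0.05. Sox10 was lower in the EpCAM-negative library, at 0.493 FPKM, against 1.55 and 0.848 FPKM in CD24low stroma (log2 fold change -0.54, 95% interval -1.15 to 0.07). With 1 library on the EpCAM-negative side the intervals are wide. By its column name that library was also sorted as Sox10-negative, so its Sox10 level is no finding. The difference between the sorts in the fMaSC against stroma fold was called for none of 8 (limma), where 1.51% of all genes were (0.0763% higher and 1.44% lower), and Sox10 alone had an unadjusted p under 0.05 (difference 1.40 on the log2 scale, interval 0.62 to 2.18; adjusted p = 0.121). Only the reporter sort was gated on Sox10, so this difference cannot be told apart from the gate.

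Traces of Sox10 in stroma went with different companions in each sort. CD24low stroma held 2.06% of the CD24+CD49f+ fMaSC mean for Sox10 and 0.425% for Epcam, and its ratio of Sox10 to Epcam was 2.91 and 1.98. EpCAM-negative stroma held 0.461% of the Sox10+EpCAM+ fMaSC mean for Sox10 and 0.528% for Epcam, and its ratio was 0.415, close to that of fMaSC. Foxd3, a crest and glial precursor factor, stood at 0.114 FPKM in EpCAM-negative stroma, against 0.858 and 0.635 FPKM in CD24low stroma. The 8 Schwann markers together summed to 34.8 FPKM in EpCAM-negative stroma and to 35.3 and 36.5 FPKM in CD24low stroma, with Cdh19 listed at 0 in the EpCAM-negative library. Their part in the stromal Sox10 values was not tested.

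The known targets of these factors were divided. Of 13 cartilage targets of Sox9, Sox5 and Sox6, 8 were tested and 7 of these rose in each sort, none fell, and the median log2 fold change was 4.04 in the reporter sort and 3.39 in the CD24/CD49f sort, against medians of 0.09 and 0.13 over all genes. Of all genes tested, 12.5% rose in the reporter sort and 7.78% in the other. Col2a1, Col9a1, Col11a2, Cnmd and Mia entered the tests through fMaSC libraries alone, since no stroma library reached 1 FPKM. The filter thus favoured upward calls among them, which limits what the count and the median show. Col9a3, a chain of cartilage collagen IX, stood at 139.6 and 147 FPKM in Sox10+EpCAM+ fMaSC against 1.35 FPKM in EpCAM-negative stroma, and at 89.0 and 65.5 FPKM in CD24+CD49f+ fMaSC against 1.10 and 0.966 FPKM in CD24low stroma. The log2 fold changes were 5.94 and 5.25 (limma, adjusted p = 0.00026 and 0.000356). The genes Mia, a small secreted protein of cartilage and melanoma (5.67 and 4.63), Cnmd, the cartilage anti-angiogenic protein chondromodulin (5.02 and 4.02), and Col9a2 (4.14 and 3.47) rose as well.

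Acan, Matn1, Matn3, Hapln1 and Comp, matrix genes of mature cartilage, were under 1 FPKM in every library and were not tested. Acan, which encodes the proteoglycan aggrecan, ran the other way from the targets that rose, at 0.0279 and 0.0721 FPKM in Sox10+EpCAM+ fMaSC against 0.912 FPKM in EpCAM-negative stroma, and at 0.111 and 0.168 FPKM in CD24+CD49f+ fMaSC against 0.786 and 0.4999 FPKM in CD24low stroma. Matn1 was listed at 0 in both Sox10+EpCAM+ fMaSC libraries. Col2a1, the main cartilage collagen, rose at a low level, with 2.15 and 1.74 FPKM in Sox10+EpCAM+ fMaSC against 0.0730 FPKM in EpCAM-negative stroma, and 0.906 and 1.53 FPKM in CD24+CD49f+ fMaSC against 0.0905 and 0.0511 FPKM in CD24low stroma. Sox9 itself was not called in either sort.

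Glial and pigment cell targets of Sox10 were called in different numbers in the 2 sorts. Of 14, 12 were tested. In CD24+CD49f+ fMaSC against CD24low stroma 7 rose and none fell, where 7.78% of all genes rose and 2.94% fell, with a median of 1.82 against 0.13 over all genes, and 4 rose without CD24low stroma replicate 2. In Sox10+EpCAM+ fMaSC against EpCAM-negative stroma 3 rose and 1 fell, where 12.5% of all genes rose and 13.6% fell, with a median of 0.95 against 0.09. Without CD24+CD49f+ fMaSC replicate 1 or 2, whose spread enters the fit, 7 rose and 2 fell there. Erbb3 and Gjc3 entered the tests through fMaSC libraries alone, so the filter favoured upward calls for them, which limits these counts.

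Erbb3, a neuregulin receptor of both glia and epithelium, was called in both sorts. It passed the filter on low values only in fMaSC, since no stroma library reached 1 FPKM, which limits both calls. It stood at 34.1 and 39.4 FPKM in Sox10+EpCAM+ fMaSC against 0.208 FPKM in EpCAM-negative stroma, and at 18.2 and 26.1 FPKM in CD24+CD49f+ fMaSC against 0.633 and 0.335 FPKM in CD24low stroma (log2 fold changes 4.96 and 3.95; limma, adjusted p = 0.000306 and 0.000505). Mbp, a myelin protein, stood at 4.74 and 8.14 FPKM in Sox10+EpCAM+ fMaSC, against 68.0 and 37.7 FPKM in CD24+CD49f+ fMaSC (log2 fold change -2.83; limma, adjusted p = 0.00688, and 0.0606 without Sox10+EpCAM+ fMaSC replicate 1).

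Pmp22, a myelin protein also made by fibroblasts, stood at 2.46 and 5.26 FPKM in Sox10+EpCAM+ fMaSC, against 73.0 and 74.0 FPKM in CD24+CD49f+ fMaSC (-4.00; limma, adjusted p = 0.00173), and was at 75.1 FPKM in EpCAM-negative stroma and 88.6 and 99.9 FPKM in CD24low stroma. Between the fMaSC fractions 6 of the 12 fell and none rose, where 8.04% of all genes fell, and 3 fell without Sox10+EpCAM+ fMaSC replicate 1. Over the same pair of fractions Sox10 ran the other way, at 103 and 110.3 FPKM against 58.0 and 58.7 FPKM. The Schwann marker sum was 13.5 and 16.2 FPKM in Sox10+EpCAM+ fMaSC and 154.7 and 132 FPKM in CD24+CD49f+ fMaSC. Schwann cells carry Sox10 and their part in the CD24+CD49f+ values of Sox10 was not tested. Dct, a pigment cell enzyme, rose in the reporter sort, at 10.2 and 13.5 FPKM in Sox10+EpCAM+ fMaSC against 0.0514 FPKM in EpCAM-negative stroma (3.60; limma, adjusted p = 0.00804). The melanoblast marker sum, which includes Dct, was 27.6 and 33.4 FPKM against 3.36 FPKM. In the CD24/CD49f sort Dct was not called (0.14; limma, adjusted p = 0.894), at 7.20 and 1.77 FPKM in CD24+CD49f+ fMaSC against 3.84 and 2.89 FPKM in CD24low stroma. The melanoblast sum there was 16.2 and 10.4 FPKM against 11.1 and 7.10 FPKM.

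**Figure D4:**
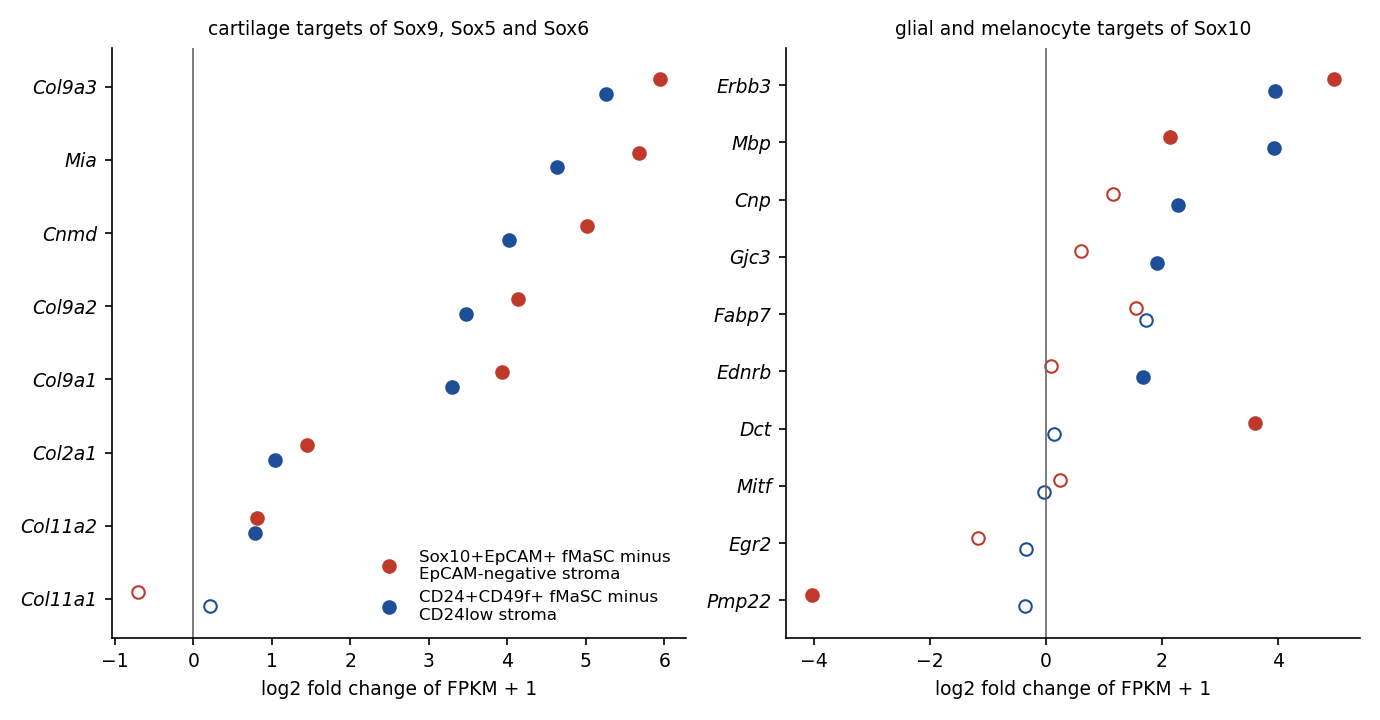
Log2 fold change of FPKM + 1 in Sox10+EpCAM+ fMaSC against EpCAM-negative stroma (red) and CD24+CD49f+ fMaSC against CD24low stroma (blue) for the tested cartilage targets (left, 8 genes) and glial and pigment targets (right, 10 of the 12 genes). Filled points had an adjusted p under 0.05 (limma). Col9a3, Mia and Cnmd lie above 4 in both sorts, while Cnp, Gjc3 and Ednrb are filled in the CD24/CD49f sort and open in the reporter sort.

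Of 8 targets and partners of SoxC, 6 were tested. In the reporter sort 1 rose and 1 fell, where 12.5% of all genes rose and 13.6% fell, with a median of 0.26 against 0.09 over all genes. In the CD24/CD49f sort 2 rose and none fell, where 7.78% of all genes rose and 2.94% fell, with a median of 0.76 against 0.13. The CD24/CD49f count was 1 without Sox10+EpCAM+ fMaSC replicate 1 or 2 or CD24+CD49f+ fMaSC replicate 2, and 0 without CD24low stroma replicate 1 or 2 or with equal FPKM sums. The gene that rose in the reporter sort, Stmn1, lost its call there without Sox10+EpCAM+ fMaSC replicate 1 (1.39) or 2 (1.63) and with equal FPKM sums (0.70). Stmn1, a tubulin-binding protein of proliferating and neural cells, was at 187 and 158 FPKM in Sox10+EpCAM+ fMaSC against 59.6 FPKM in EpCAM-negative stroma, and at 162 and 117 FPKM in CD24+CD49f+ fMaSC against 45.9 and 56.7 FPKM in CD24low stroma. It rose in both sorts together (log2 fold change 1.45; limma, adjusted p = 0.00357). Over both sorts 3 genes rose, Stmn1, Ezh2 and Tead2, where 15.6% of all genes did, and 1 rose without Sox10+EpCAM+ fMaSC replicate 1 or 2 or CD24low stroma replicate 1 or 2.

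Marcks, an actin-binding kinase substrate, stood at 14.4 and 17.6 FPKM in Sox10+EpCAM+ fMaSC against 115 FPKM in EpCAM-negative stroma, and at 69.2 and 80.2 FPKM in CD24+CD49f+ fMaSC against 114.5 and 110.2 FPKM in CD24low stroma. The fMaSC libraries were lower in both sorts. It fell in the reporter sort (-2.78; limma, adjusted p = 0.000965), where it was called in 16 of 16 alternatives, and was not called in the CD24/CD49f sort (-0.59; adjusted p = 0.139). The pooled fold over both sorts (-1.46; limma, adjusted p = 0.0496) was called in 4 of 16 alternatives. That pooled call was lost without Sox10+EpCAM+ fMaSC replicate 1 (-1.27) or 2 (-1.36), EpCAM-negative stroma (-0.59), CD24+CD49f+ fMaSC replicate 1 (-1.63) and CD24low stroma replicate 1 (-1.67) or 2 (-1.70).

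Among 16 regulators known to act upstream of SoxE genes, 14 were tested. Of these 5 rose and 3 fell in the reporter sort, and in the CD24/CD49f sort 4 rose and none fell, with medians of 0.66 and 0.41 against 0.09 and 0.13 over all genes. Of all genes tested, 12.5% rose and 13.6% fell in the reporter sort, and 7.78% rose and 2.94% fell in the other. Without CD24+CD49f+ fMaSC replicate 1 or 2, 1 fell in the CD24/CD49f sort. Those that rose included Tfap2c and Tfap2a, crest and epithelial transcription factors, and Etv4, an Ets factor induced by FGF signals. For Tfap2c no stroma library reached 1 FPKM, so it entered the tests through fMaSC libraries alone, which limits its calls and the counts. Tfap2c stood at 44.5 and 43.9 FPKM in Sox10+EpCAM+ fMaSC against 0.154 FPKM in EpCAM-negative stroma, and at 22.2 and 26.5 FPKM in CD24+CD49f+ fMaSC against 0.130 and 0.0460 FPKM in CD24low stroma (log2 fold changes 5.29 and 4.54; limma, adjusted p = 0.00026 and 0.000356). Etv4 stood at 27.3 and 21.8 FPKM in Sox10+EpCAM+ fMaSC against 1.48 FPKM in EpCAM-negative stroma, and at 10.4 FPKM in each CD24+CD49f+ fMaSC library against 1.04 and 0.766 FPKM in CD24low stroma. Fgf10, the mesenchymal ligand that signals to mammary epithelium, was at 0.152 and 0.124 FPKM in Sox10+EpCAM+ fMaSC against 24.0 FPKM in EpCAM-negative stroma (-4.46; limma, adjusted p = 0.000678), and at 6.88 and 13.4 FPKM in CD24+CD49f+ fMaSC against 22.5 and 25.1 FPKM in CD24low stroma (-1.22; adjusted p = 0.0527).

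Of the 11 remaining Sox genes, 5 were tested and reached 1 FPKM in some library. Sox21, a SoxB repressor, resembled Sox10 at a lower level. It stood at 5.42 and 6.70 FPKM in Sox10+EpCAM+ fMaSC against 0.0367 FPKM in EpCAM-negative stroma, and at 3.23 and 2.53 FPKM in CD24+CD49f+ fMaSC against 0.0340 and 0.0137 FPKM in CD24low stroma. It rose in both sorts (log2 fold changes 2.76 and 1.92; limma, adjusted p = 0.000648 and 0.00235), having entered the tests through fMaSC libraries alone. Sox15 was at 1.69 and 1.37 FPKM in Sox10+EpCAM+ fMaSC against 0.0520 FPKM in EpCAM-negative stroma, and at 0.618 and 0.522 FPKM in CD24+CD49f+ fMaSC against 0.0485 and 0.0581 FPKM in CD24low stroma. It rose in the reporter sort (1.26; limma, adjusted p = 0.00469), which rests on both Sox10+EpCAM+ fMaSC libraries, since without either it no longer passed the filter on low values.

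Sox2, a SoxB factor of stem cells and of immature Schwann cells, was at 0.0292 and 0.173 FPKM in Sox10+EpCAM+ fMaSC against 0.0157 FPKM in EpCAM-negative stroma, and at 1.44 and 2.38 FPKM in CD24+CD49f+ fMaSC against 0.0870 and 0.0874 FPKM in CD24low stroma. It was lower in Sox10+EpCAM+ than in CD24+CD49f+ fMaSC (-1.39; limma, adjusted p = 0.0115), as were the Schwann markers, whose part was not tested. That call was lost without Sox10+EpCAM+ fMaSC replicate 1 (-1.29, adjusted p = 0.121) or 2 (-1.48, adjusted p = 0.0748). Its rise against CD24low stroma (1.40; adjusted p = 0.00972) was lost without CD24low stroma replicate 1 or 2 (adjusted p = 0.0706 and 0.0777). Sox2 entered the tests only through the CD24+CD49f+ fMaSC libraries, where it was high. Without either of these it no longer passed the filter on low values, which limits both calls.

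Sox18 and Sox7 are SoxF factors of endothelium. Sox18 was at 0.483 and 0.484 FPKM in Sox10+EpCAM+ fMaSC, against 3.45 and 8.88 FPKM in CD24+CD49f+ fMaSC (-2.16; limma, adjusted p = 0.0191). The EpCAM-negative stroma library had 1.85 FPKM, and CD24low stroma had 3.51 and 3.26 FPKM. The 6 endothelial markers summed to 3.70 and 4.22 FPKM in Sox10+EpCAM+ fMaSC and to 22.1 and 25.2 FPKM in CD24+CD49f+ fMaSC, and their part was not tested. The Sox18 call was lost without Sox10+EpCAM+ fMaSC replicate 1 (adjusted p = 0.138) or 2 (0.115) and without CD24low stroma replicate 1 or 2 (0.0559 and 0.0558). Sox7 had 0.320 and 0.312 FPKM in Sox10+EpCAM+ fMaSC, against 1.04 and 1.19 FPKM in CD24+CD49f+ fMaSC, and was not called. Sox1, Sox3, Sox14, Sox17, Sox30 and Sry were under 1 FPKM in every library.

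**Figure D5:**
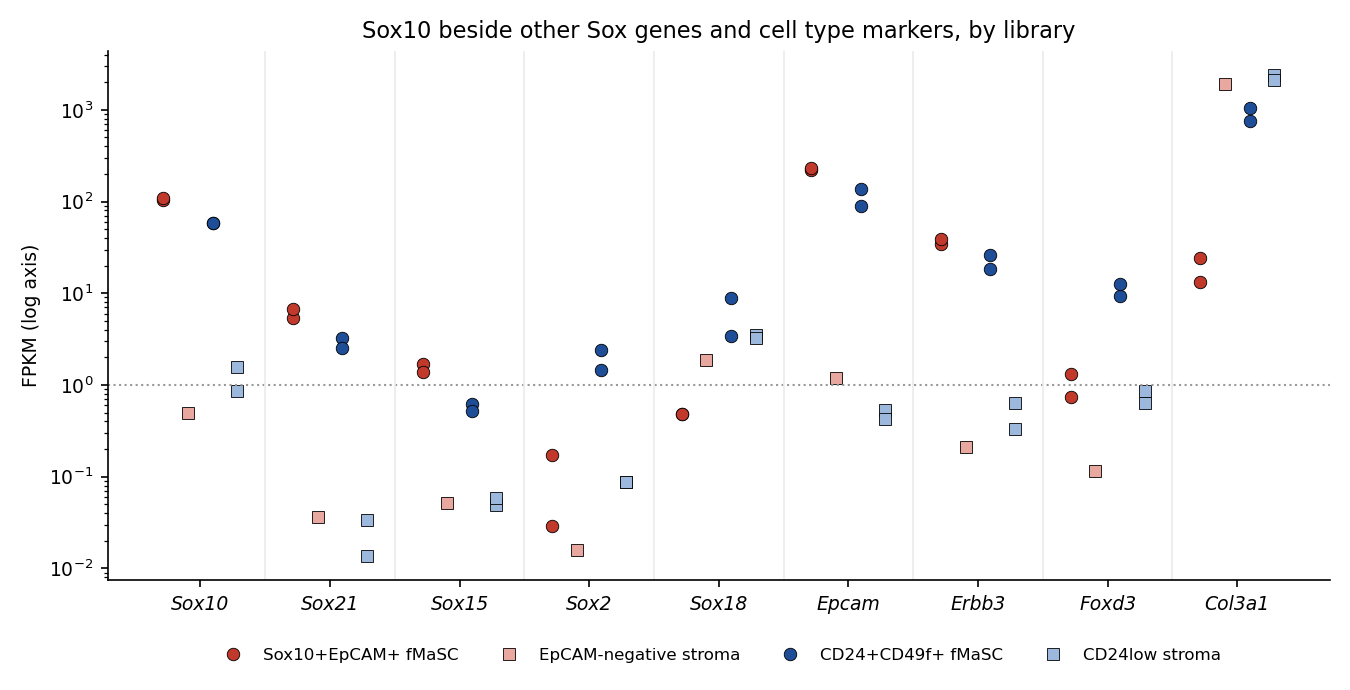
FPKM (log axis) in each of 7 libraries of Sox10, of 4 other Sox genes, and of markers of epithelium (Epcam), epithelium and glia (Erbb3), Schwann cell precursors (Foxd3) and fibroblasts (Col3a1), with a dotted line at 1 FPKM. Sox21 and Erbb3, like Sox10, are highest in Sox10+EpCAM+ fMaSC and lowest in stroma, while Sox2 and Foxd3 are highest in CD24+CD49f+ fMaSC.

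The genes most like each member were named by Pearson's r of log2(FPKM + 1) over the 7 libraries, among 7716 genes with a mean of at least 5 FPKM. The 7 libraries share 4 sort fractions, and r is given as a description. Sox10 was closest to Chil1 (r = 0.999), Cadm1 (r = 0.999) and Erbb3 (r = 0.998). Chil1, a secreted chitinase-like protein, stood at 63.1 and 63.3 FPKM in Sox10+EpCAM+ fMaSC against 0.380 FPKM in EpCAM-negative stroma, and at 32.0 and 35.0 FPKM in CD24+CD49f+ fMaSC against 0.829 and 0.424 FPKM in CD24low stroma. Sox4 was closest to Bcl2l11, Jup and Cdk17 (r = 0.998, 0.996 and 0.996), of which Jup encodes the junction protein plakoglobin. Sox11 was closest to Csnk1a1 and Ulk1, Sox13 to Csad, Shmt1 and Agps, Sox8 to Reep4, Rassf3 and Fblim1, and Sox5 to Brap, Casc3 and Pxn. Sox9 and Sox12, which did not follow the fractions, were closest to genes of another kind of pattern. For Sox9 these were Slc41a1 and Rnf19b (r = 0.987 and 0.973), each with its highest value in CD24+CD49f+ fMaSC replicate 2, and for Sox12 they were Ell, Slc4a2 and Safb (r = 0.982, 0.978 and 0.974), each with its lowest value in CD24low stroma replicate 2, 3.84 FPKM for Ell. Among the members themselves, Sox4 correlated with Sox8, Sox11 and Sox13 at r = 0.99, 0.98 and 0.98, and Sox12 with no other above 0.68.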

How the data were processed

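RNA of 7 libraries was sequenced as paired reads on an Illumina instrument after TruSeq library preparation, per the labels' protocols. The authors deposited 1 table of FPKM values, with gene loci on GRCm38, and the submitters' processing notes name STAR and Cufflinks without versions. The kit's strand setting is not given in the sources used here. The 9 members were found by symbol, ignoring case. Members, gene lists and tests were chosen with earlier results of these data known.

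Values were taken as log2(FPKM + 1) for the 14418 genes with at least 1 FPKM in at least 2 libraries. limma 3.58.1 (R 4.3.3) with a mean-variance trend was fitted to 4 group means (3 residual degrees of freedom), or to cell type plus sort (4 degrees of freedom) for both sorts together, with Benjamini-Hochberg adjustment over all genes and a threshold of 0.05. EpCAM-negative stroma is 1 library, assumed to vary like the other groups. The labels call the libraries biological replicates. Depth was estimated from the spacing of low values, of which 57.3% to 64.8% lay within 0.15 of a whole fragment, too few for counts to be recovered. A fold on this scale understates changes of low genes. Of each list, up to 4 called genes with the largest change are named by rule. Some genes that the rules select are not reported here. Col2a1, Col9a1, Col11a2, the genes under 1 FPKM, Foxd3 and Col3a1 were named after their values were seen. The alternatives were other pseudocounts, filters, scalings and variance models, the compared groups alone, summed rows and each library left out.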

Additional observations from a re-analysis of the deposited data

Results flagged for a closer look

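The table carries 8 added sequences besides genes, outside the measurements reported above. The sequence named mL1-GFP_reporter stood at 21.2 and 21.9 FPKM in Sox10+EpCAM+ fMaSC, against 0.0679 FPKM in EpCAM-negative stroma. The sequence named spliced_GFP stood at 202 and 211 FPKM in Sox10+EpCAM+ fMaSC, against 0.660 FPKM in EpCAM-negative stroma. In the CD24/CD49f sort both were at 0.131 FPKM or less in every library, and the other 6 added sequences were listed at 0 in all 7.

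The fMaSC against stroma fold differed between the sorts for 3 of the named context genes, by a test of the difference itself (limma). For Pmp22, a myelin protein also made by fibroblasts, the reporter sort minus the CD24/CD49f sort was -3.68 on the log2 scale (adjusted p = 0.0310). For Fgf10 it was -3.24 (adjusted p = 0.0367), and for Marcks it was -2.19 (adjusted p = 0.0389).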

How the results depend on the processing

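No paired analysis was possible because the labels carry no replicate numbers that tie libraries of different groups. Sox10 was called under every alternative run in the CD24/CD49f sort, the reporter sort and both together. The number of Sox genes called in the CD24/CD49f sort, 2 as reported, was 1 with no filter, with every library brought to the same FPKM sum, with quantile scaling and with the compared groups alone, and 1 to 4 when 1 library was left out. In the reporter sort it was 5 as reported, 1 with equal FPKM sums, 6 with the compared groups alone, and as few as 1 and at most 5 with 1 library left out. Each of these reporter counts includes the gated Sox10. Over both sorts it was 5 as reported, 1 under the same scaling, and 2 to 5 with 1 library left out. Between the fMaSC fractions it was 0 as reported and 1, Sox10, with median-of-ratios scaling (0.87, adjusted p = 0.0485). Equal sums shifted the median of all genes, 0.13 as reported in the CD24/CD49f sort, to -0.12, and likewise to -0.63 in the reporter sort (0.09 as reported) and to -0.32 over both (0.12).

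With 1 library left out, Sox9 in the CD24/CD49f sort ran between -0.037 (without CD24+CD49f+ fMaSC replicate 2) and 0.91, Sox12 over both sorts between -0.064 (without CD24low stroma replicate 2) and 0.30, and, between the fMaSC fractions, Sox9 between -0.54 and 0.40 and Sox5 between -0.28 and 0.11. The sign turned for Sox9 with equal FPKM sums in the reporter sort (-0.37) and over both (-0.050). It turned for Sox12 over both sorts with that scaling (-0.34) and with median-of-ratios factors (-0.0075). Between the fMaSC fractions it turned for Sox9 without Sox10+EpCAM+ fMaSC replicate 1 (0.014) or CD24+CD49f+ fMaSC replicate 2, for Sox12 with quantile scaling (0.036), and for Sox5 with quantile scaling (0.20) or without CD24+CD49f+ fMaSC replicate 2. The cause was not tested.

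Over all genes, 1545 were called in the CD24/CD49f sort, 556 with equal FPKM sums, 785 with the compared groups alone and 426 to 2353 with 1 library left out. In the reporter sort 3762 were called, 2213 under that scaling, 7878 with the compared groups alone and 1674 to 5758 with 1 library left out. Of those called in the reporter sort 47.9% were higher in fMaSC, and 26.8% under that scaling. With 1 to 2 libraries a group and 3 residual degrees of freedom, the number of libraries limits the precision of the member folds.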
